A study of Bos taurus with 16 samples.

Results

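The comparison described here is the intake difference among low-gain steers. Low gain with high intake (4 steers) was set against low gain with low intake (4 steers), which are 8 of the 16 animals of the study. The members were chosen by their labelled group alone, and no measured value entered the choice. All 16 steers were crossbred males aged 344 ± 48 days with free access to 1 ration of mainly corn (57.35%), wet distillers grains (30%) and alfalfa hay (8%). The ration also held 0.4% urea. No agent was given and no genotype is labelled: animals were picked by where they fell when plotted by gain against dry matter eaten. High and low intake are therefore classes of what each steer ate, and low gain is shared by both groups. RNA came from papillae clipped from the rumen wall, 1 library per animal, so every replicate is a different steer. The question this comparison addresses is which rumen transcripts differ between steers that gained little while eating much and steers that gained little while eating little.

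Rumen papillae are leaf-like folds covered by a stratified squamous epithelium over a core of connective tissue and vessels. Basal cells divide and carry much of the mitochondrial metabolism, which turns absorbed butyrate into ketone bodies, and cells flatten and cornify towards the lumen. The tissue takes up short-chain fatty acids, exchanges sodium for protons, recycles urea and holds back acid and microbes. Papillae hold several cell types, and in such bulk tissue fewer cells of a type and less RNA per cell cannot be told apart.

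A gene's level is the scaled read coverage per base of its best covered exon region, so it is a level per length. Whether groups overlap is stated for that region, and in many named genes other exon regions overlapped. Differences are log2(level + 0.1) at high intake minus low intake, with the SE of the limma fit. This scale understates the change of genes with low levels. Of 12011 genes with an exon region, 9052 had a level of at least 0.5 in at least 4 of the 8 libraries and were tested. A gene under 0.5 in every steer of one group was tested only if every steer of the other group reached 0.5. The groups of such a gene could not overlap. Among the named genes this holds for LOC524771, WTIP, MT1A and TSPAN5, and counts of groups that do not overlap include such genes. The 8 libraries held an estimated 11.9 to 16.4 M reads, 14.6 ± 1.93 at high and 14.9 ± 1.06 at low intake (SD, n = 4). The exact permutation test of that difference gave a two-sided p of 0.771, where 70 arrangements allow no p below 0.0286. The share of coverage in exons (64.7% ± 4.63 and 65.8% ± 4.40) and the mitochondrial share (13.3% ± 5.50 and 11.99% ± 3.70) differed by less than the SD of either group. The first-exon index was -1.12 ± 0.235 and -1.74 ± 1.68. Its difference of 0.617 exceeded the SD at high intake but not that at low intake. Without low-intake replicate 3, described below, the low-intake mean of the index was -0.90. The adjusted p over these 4 measures was 0.914 for each in the exact permutation test. The first-exon index is the log2 level of first exons against the other exons of long genes.

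Low gain with low intake replicate 3 stood apart from the other 7 libraries. Its first-exon index was -4.25, against -1.43 to -0.77 in the others, and 1092 tested genes were listed at 0 in it, against 29 to 79. Its log2 levels correlated with those of the other libraries at r = 0.389 to 0.447 across genes, while the other 7 correlated with each other at 0.911 to 0.953. Its exon share was 59.2% and its mitochondrial share 17.5%. List counts and medians, and the estimates printed with an SE for this comparison, are therefore given with and without this library. Levels are given for all 4 low-intake steers or as a range over them, and folds between means hold all 8 libraries. The epithelial markers KRT5, KRT14, TP63, DSP and PKP1 were detected in all 8 libraries. Endothelial, fibroblast, smooth muscle and T-cell markers were also present, with VWF and DES at 0 in replicate 3 alone. The B-cell marker CD79A was at 0 in 6 of 8 libraries and MS4A1 in 7 of 8, and HBB of erythrocytes in 7 of 8.

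No gene passed the threshold with all 8 libraries: 0 of 9052 (0%) had an adjusted p under 0.05 in limma, and the smallest adjusted p was 0.422. At an unadjusted p under 0.05 the estimates of 70 genes were higher (0.773%) and those of 118 lower (1.3%) at high intake. In 87 genes (0.961%) all 4 high-intake steers lay above all 4 low-intake steers, and in 195 genes (2.15%) all lay below. Without low-intake replicate 3, 1 gene (0.011%) passed the threshold, MX1. The counts at an unadjusted p under 0.05 then became 221 higher (2.44%) and 669 lower (7.39%), and those of non-overlapping groups 235 (2.6%) and 729 (8.05%). The median difference over all tested genes was 0.04 with the 8 libraries and -0.11 without replicate 3. Differences of a list are read against those medians.

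MX1, an interferon-induced GTPase that blocks viruses inside cells, was the gene with the smallest p in both fits. Its level was 3.77, 6.15, 4.82 and 5.85 in the high-intake steers and 1.19, 0.93, 1.06 and 0.99 in the low-intake steers, for the region at chromosome 1, 143200745 to 143200987 (UMD3.1), in exon 14. The groups did not overlap, and the 4 low-intake steers, replicate 3 included, lay within a narrow range. The means were 5.15 ± 1.08 and 1.04 ± 0.112 (SD, n = 4), a 4.94-fold difference. The estimate was 2.18 (SE 0.28) with an adjusted p of 0.422 in limma, and 2.19 (SE 0.22) with an adjusted p of 0.0471 without replicate 3. With the first-exon index as a covariate the adjusted p of MX1 was 0.0453, and in the other 16 alternatives that were run it lay between 0.246 and 0.894. The estimates of those alternatives lay between 1.57 and 2.32. The first-exon index was -4.25 in replicate 3 and -1.43 to -0.77 in the other low-gain libraries. The covariate thus mostly sets replicate 3 apart and is not independent of leaving it out. Depth is modest: the levels stand for an estimated 18.3 to 40.9 reads per library at high intake, against 5.58 to 6.80. All 12 MX1 exon regions with a mean level of at least 0.5 were higher on average at high intake, and in 8 of them the groups did not overlap (10 without replicate 3).

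**Figure D1:**
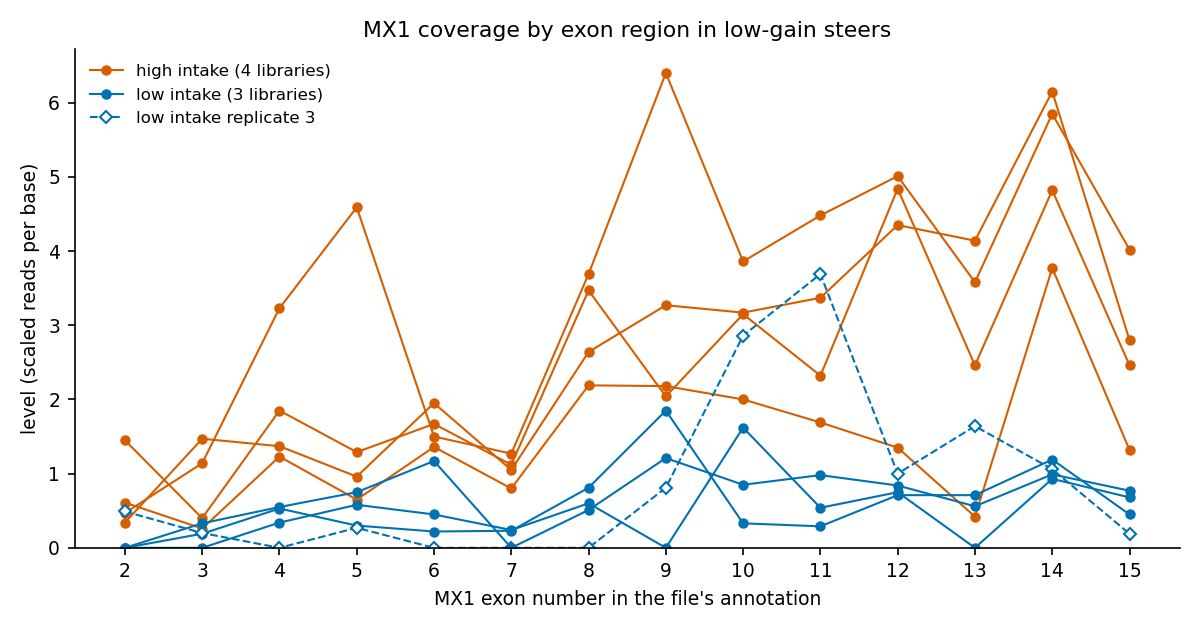
MX1 level (scaled reads per base, vertical axis) in each of its 14 exon regions (exon number, horizontal axis), 1 line per low-gain steer. The 4 high-intake lines lie above the low-intake lines in most exons, and replicate 3 of low intake (dashed, open diamonds) overlaps them in exons 2, 10, 11 and 13. Low-intake replicate 4 overlaps them in exons 3, 5 and 13, and low-intake replicate 1 in exon 13.

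MX1 stood alone among the interferon-induced genes in having groups that did not overlap. Of 36 listed in the file 31 were tested: 17 estimates were higher and 14 lower, with a median of 0.19, and MX1 was the 1 without overlap. Over all tested genes 0.961% were higher without overlap. Without replicate 3, 5 were higher and 26 lower, with a median of -0.25. MX2, the neighbouring paralog on chromosome 1, had 0.33, 1.12, 1.69 and 0.83 at high and 0.57, 0.59, 0.81 and 0.66 at low intake, and the groups overlapped (0.36, SE 0.47; without replicate 3 0.45, SE 0.47). STAT2, a transcription factor that carries the interferon signal, had 3.87, 2.82, 3.31 and 3.13 against 0.84, 3.91, 0.73 and 2.28. Its groups overlapped, as did those of IFIT5 (2.76 to 3.52 against 3.37 to 15.28), GBP4 (0.19 to 1.03 against 0.37 to 3.09) and DTX3L (0.39 to 0.87 against 0.48 to 1.73). ISG15, a ubiquitin-like protein that interferon induces strongly, lay between 0.68 and 1.65 at high and between 0 and 2.81 at low intake. MX2 and ISG15 were picked after their values were seen.

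Kallikreins, serine proteases that cut the links between cornified cells, had some of the largest differences. KLK10 had 6.94, 8.23, 13.3 and 14.5 at high intake and 0, 1.46, 0 and 1.79 at low intake (13.2-fold between the means, estimate 4.64, SE 1.08; without replicate 3 3.96, SE 0.91). All 4 high-intake steers were above the low-intake steers, in which 2 libraries, replicates 1 and 3, were at 0. KLK9 (chromosome 18, 57438690 to 57439698, exon 5) had 1.43, 0.97, 2.26 and 3.20 against 0.08, 0.50, 0.04 and 0.28, an 8.73-fold difference with an estimate of 2.78 (SE 0.59). No steer of one group lay within the other, and the estimate without replicate 3 was 2.45 (SE 0.52). KLK12 had 3.05, 3.16, 6 and 3.99 against 0, 2.82, 0 and 1.49, so its groups came close to each other. KLK7 and KLK8, proteases of the shedding surface, were too low to be tested. KLK7 had 0.24, 0.63, 4.30 and 1.34 at high intake and 0, 0.05, 0.04 and 0 at low intake. KLK8 had 0.15, 0.67, 7.01 and 0.41 and was listed at 0 in all 4 low-intake steers. The groups did not overlap in either, and high-intake replicate 3 had the highest level of both. KLK5 and KLK6, also untested, were detected in 3 and 2 high-intake steers, up to 1.39 and 9.87, and did not pass 0.12 at low intake. These genes lie close together on chromosome 18 and are related in sequence, so reads of 50 bases may be shared between them where they are alike. For KLK10 and KLK9 the direction was the same in every exon region with a mean of at least 0.5, 6 of 6 and 2 of 2, and the groups did not overlap in any of these.

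The wider list of cornified surface genes had 26 tested members, all 26 with a higher estimate at high intake and a median of 0.92. None passed the threshold, and in 6 (KLK9, KLK10, KLK12, S100A12, SCEL and HOPX) the groups did not overlap, all higher, as in 0.961% of all tested genes. Over all tested genes 52.3% of estimates were higher. Without replicate 3, 15 were higher and 11 lower with a median of 0.24, while 35.6% of all tested genes were then higher. The 6 genes with groups that did not overlap were the same, and S100A16 was added on the lower side. The summed level of the list was 4874 to 7046 at high intake, 4070 to 4969 in the low-intake steers other than replicate 3, and 2247 in replicate 3. S100A12, a calcium-binding alarmin, was the most abundant of the 6, with 3386, 3925, 4811 and 3442 against 2627, 3125, 1898 and 3069. HOPX, a homeodomain protein of differentiating epithelium, had 8.94, 13.4, 10.51 and 11.1 against 7.51, 4.40, 4.98 and 6.66 (1.87-fold, estimate 0.91, SE 0.27). Its groups did not overlap, and its estimate without replicate 3 was 0.84 (SE 0.22).

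**Figure D2:**
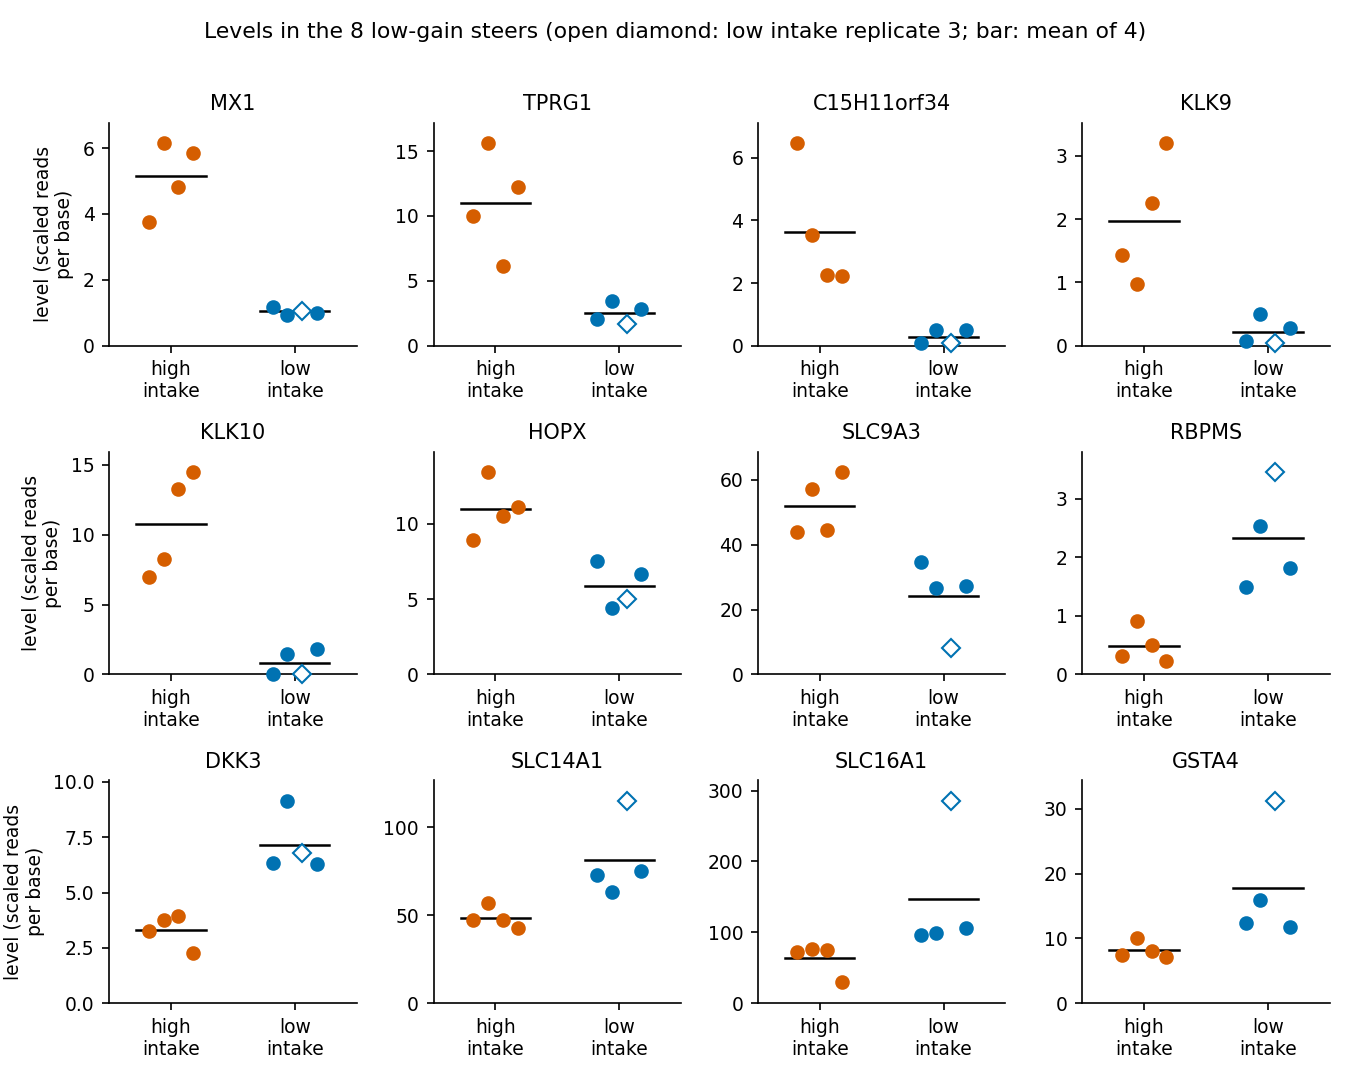
Levels (scaled reads per base, linear axes from 0) of 12 genes in the 8 low-gain steers, with a bar at the mean of 4 and an open diamond for low-intake replicate 3. MX1, TPRG1, C15H11orf34, KLK9, KLK10, HOPX and SLC9A3 lie higher at high intake in every steer, and RBPMS, DKK3, SLC14A1, SLC16A1 and GSTA4 lie lower.

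Keratins, the filament proteins of the epithelium, had 12 of 15 estimates higher with a median of 0.89, and 6 of 15 with a median of -0.45 without replicate 3. The median thus changed sign with 1 library. KRT23 had 7.62, 15.2, 14.5 and 10.8 against 9.38, 6.88, 0.93 and 5.33, and its groups overlapped through low-intake replicate 1. KRT80 lay between 16.5 and 26.6 at high and between 3.09 and 20.1 at low intake, and KRT36 between 6.30 and 56.2 and between 0 and 102. Of the basal keratins, KRT5 had 116 to 257 at high intake, against 292, 349 and 290 at low intake and 53.8 in replicate 3. KRT14 had 213 to 509 against 319, 686 and 467, and 9.83 in replicate 3, with overlapping groups either way. DSP, the desmosomal plaque protein, had 161 to 204 against 164 to 199, and 77.9 in replicate 3.

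Basal layer and hemidesmosome genes, which anchor the epithelium, had 5 of 12 estimates higher and 7 lower (median -0.10). Without replicate 3 all 12 were lower, with a median of -0.54, where 64.4% of all tested genes were lower. In 5 of the 12 (ITGA6, ITGB4, LAMB3, CDH3 and KRT5) the groups then did not overlap, all lower, as in 8.05% of all tested genes. ITGA6, the laminin receptor subunit of hemidesmosomes, had 8.73, 8.22, 9.54 and 4.02 at high and 11, 11.5, 27.0 and 11.97 at low intake. Its groups did not overlap with or without replicate 3 (estimates -0.96, SE 0.41, and -0.66, SE 0.28). CAV1, the coat protein of caveolae, had 4.77 to 7.64 against 7.48 to 31.52, and ITGB1, an integrin chain, 5.39 to 16.6 against 12.5 to 32.6.

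Genes of the barrier lipids and lipoxygenases had 16 of 24 estimates higher with a median of 0.39, and 9 of 24 with a median of -0.10 without replicate 3. ALOX12, a lipoxygenase of arachidonic acid, had 7.14, 7.38, 3.36 and 9.96 against 3.1, 2.55, 1.35 and 4.07, a 2.51-fold difference between the means with groups that overlapped through 1 steer. PNPLA1, an enzyme of skin ceramide synthesis, had 10.4, 2.69, 2.26 and 9.15 against 2.49, 1.81, 0 and 4.51. FABP5, a fatty acid carrier, had 145 to 204 against 186 to 199, and 485 in replicate 3.

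Epithelial protease inhibitors had 15 of 20 estimates higher with a median of 0.44, and 10 of 20 with a median of 0.00 without replicate 3. The groups of 4 overlapped in all 20. PI3, an elastase inhibitor, spanned 90.0 to 1287 at high intake against 5.82 to 324. SERPINB1, an inhibitor of neutrophil proteases, had 20.3, 28.3, 30.2 and 19.7 against 6.67, 24.5, 7.32 and 15.8. TIMP2, an inhibitor of matrix metalloproteases, had 19.4, 32.1, 17.4 and 20.2 against 12.4, 14.98, 7.32 and 17.7. For SERPINB1 2 and for TIMP2 3 of the 4 high-intake steers lay above all low-intake steers. SERPINB2 and SERPINB10 had lower means at high intake (1.73-fold and 1.86-fold), also with overlap.

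Innate sensing and cytokine genes had 21 of 28 estimates higher with a median of 0.29, and 18 of 28 with a median of 0.21 without replicate 3. None passed the threshold. LAP, a beta-defensin, had 55.3, 47.8, 42.6 and 36.0 against 39.3, 16.4, 8.99 and 13.7, 2.32-fold between the means (estimate 1.41, SE 0.44; without replicate 3 1.11, SE 0.34). The groups overlapped through low-intake replicate 1 only. TAP, another beta-defensin, had 148, 85.9, 284 and 121 against 1.72, 118, 6.95 and 74.1. Bovine beta-defensins are a family of close copies, so their reads cannot be assigned with certainty. IL36RN, the antagonist of the interleukin-36 receptor, had 40.2, 61.1, 43.7 and 64.3 against 31.5, 28.6, 16.9 and 39.9. The groups were apart by a small margin, and the estimate was 0.87 (SE 0.32), or 0.63 (SE 0.21) without replicate 3. TLR5, the receptor of flagellin, was the 1 member whose groups did not overlap on the lower side, as in 2.15% of all tested genes. TLR1 (0.52 to 1.47 against 0.19 to 0.64) and PTGES, a prostaglandin E synthase (1.79 to 2.82 against 0.12 to 1.80), overlapped by 1 steer. S100A8 and S100A9, the calprotectin subunits, overlapped widely: S100A8 had 348 to 708 against 196 to 511, and S100A9 had 127 to 393 against 8.68 to 292. Summed T and NK cell genes spanned 18.7 to 50.2 at high intake against 28.1 to 46.0, and macrophage and dendritic cell genes 16.5 to 62.4 against 24.9 to 46.5. Their part in the immune gene values was not tested.

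Acid, ion and solute transport genes went both ways. Of 36 tested, 23 estimates were higher and 13 lower (median 0.30), and 13 and 23 without replicate 3 (median -0.13). In 4 the groups of 4 did not overlap, 2 higher and 2 lower, beside 0.961% and 2.15% of all tested genes. These 4 were the same in direction without replicate 3. SLC9A3, the apical sodium-proton exchanger, had 43.9, 57.1, 44.5 and 62.4 at high intake and 34.6, 26.6, 8.23 and 27.3 at low intake. This is 2.15-fold between the means, and the estimate was 1.26 (SE 0.45), or 0.81 (SE 0.18) without replicate 3. All 8 of its exon regions with a mean of at least 0.5 had the same direction, and in 7 the groups did not overlap. TRPV6, an epithelial calcium channel, had 3.42, 4.25, 5.98 and 5.84 against 1.72, 2.18, 0.31 and 2.27, 3.01-fold between the means. Its groups did not overlap, and the estimate was 1.77 (SE 0.59), or 1.18 (SE 0.24) without replicate 3.

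SLC16A1, the monocarboxylate transporter that exports ketone bodies and lactate, had 72.8, 77.0, 75.4 and 30.1 at high intake and 96.4, 99.6, 286 and 106 at low intake. All 4 low-intake steers were higher, replicate 3 by far (estimate -1.13, SE 0.47; without it -0.75, SE 0.32). SLC14A1, the urea transporter UT-B, had 47.4, 57.0, 47.3 and 42.6 against 72.8, 63.2, 115 and 75.2, and its groups did not overlap. Its estimate was -0.72 (SE 0.25), or -0.54 (SE 0.14) without replicate 3. SLC26A2, a sulfate transporter, had 3.25 to 6.78 against 4.73 to 14.1, with overlap.

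Subunits of the vacuolar proton pump, which acidifies compartments, had 13 of 19 estimates higher (median 0.43), and 12 of 19 without replicate 3 (median 0.15). ATP6V0C had 81.7, 91.1, 91.1 and 97.3 against 79.8, 62.7, 17.4 and 72.6, and ATP6V1C2 had 7.10, 9.91, 7.31 and 8.29 against 6.5, 4.01, 1.60 and 6.52. Neither overlapped, though the nearest steers were close. Of the exon regions with a mean of at least 0.5, 1 of 6 for ATP6V0C and 4 of 8 for ATP6V1C2 did not overlap. ATP6V1B1 had 25.0, 33.5, 33.4 and 32.2 against 17.1, 13.0, 30.7 and 18.7. For this subunit replicate 3 was the low-intake library that overlapped, and the estimate was 0.70 (SE 0.30) with it and 0.93 (SE 0.18) without it.

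Genes of ketone body synthesis and fatty acid oxidation had 10 of 24 estimates higher and 14 lower (median -0.27), and 4 and 20 without replicate 3 (median -0.27). BDH1, which makes beta-hydroxybutyrate, had 55.1 to 167 against 132 to 174, and 3.49 in replicate 3. HADH and ETFA, both of fatty acid oxidation, had 213 to 379 against 313 to 571 and 81.6 to 111 against 109 to 176, and ACADL, a long-chain dehydrogenase, 1.13 to 4.02 against 2.28 to 9.44. All 3 overlapped.

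Nuclear genes of oxidative phosphorylation had 45 of 75 estimates higher and 30 lower (median 0.34) with all 8 libraries. This median depended on the region used, which held a first exon in 29 members: it was 0.04 over all exon regions and -0.11 in regions without a first exon, which 56 members had. Without replicate 3, 5 were higher and 70 lower (median -0.27), and in 19 the groups did not overlap, all on the lower side, where 8.05% of all tested genes were. ATP5A1, the alpha subunit of ATP synthase, had 75.5, 77.3, 64.7 and 75.6 against 82.4, 108, 111 and 94.9 and did not overlap in either setting (-0.43, SE 0.20; without replicate 3 -0.37, SE 0.14). ATP5G3 had 33.0 to 61.5 against 55.9 to 66.3, and SDHD 44.9 to 70.7 against 69.5 to 276. Mitochondrial ribosomal proteins had 32 of 72 higher and 40 lower (median -0.06), and 5 and 67 without replicate 3 (median -0.27, 18 not overlapping and lower, against the same 8.05%). Citric acid cycle genes had 10 of 22 higher and 12 lower (median -0.17), and 3 and 19 without it (median -0.25). ME2, the mitochondrial malic enzyme, had 19.9, 18.4, 25.0 and 17.6 against 39.2, 27.2, 42.5 and 31.0, a 1.73-fold difference with no overlap. IDH1, the cytosolic isocitrate dehydrogenase, had 135 to 152 against 164, 202 and 171, and 637 in replicate 3, also with no overlap. With a mean of at least 0.5, 2 of 16 ME2 and 1 of 8 IDH1 exon regions had groups that did not overlap. The mitochondrial share of each library is a separate measure, with the means of 13.3% and 11.99% given above.

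**Figure D3:**
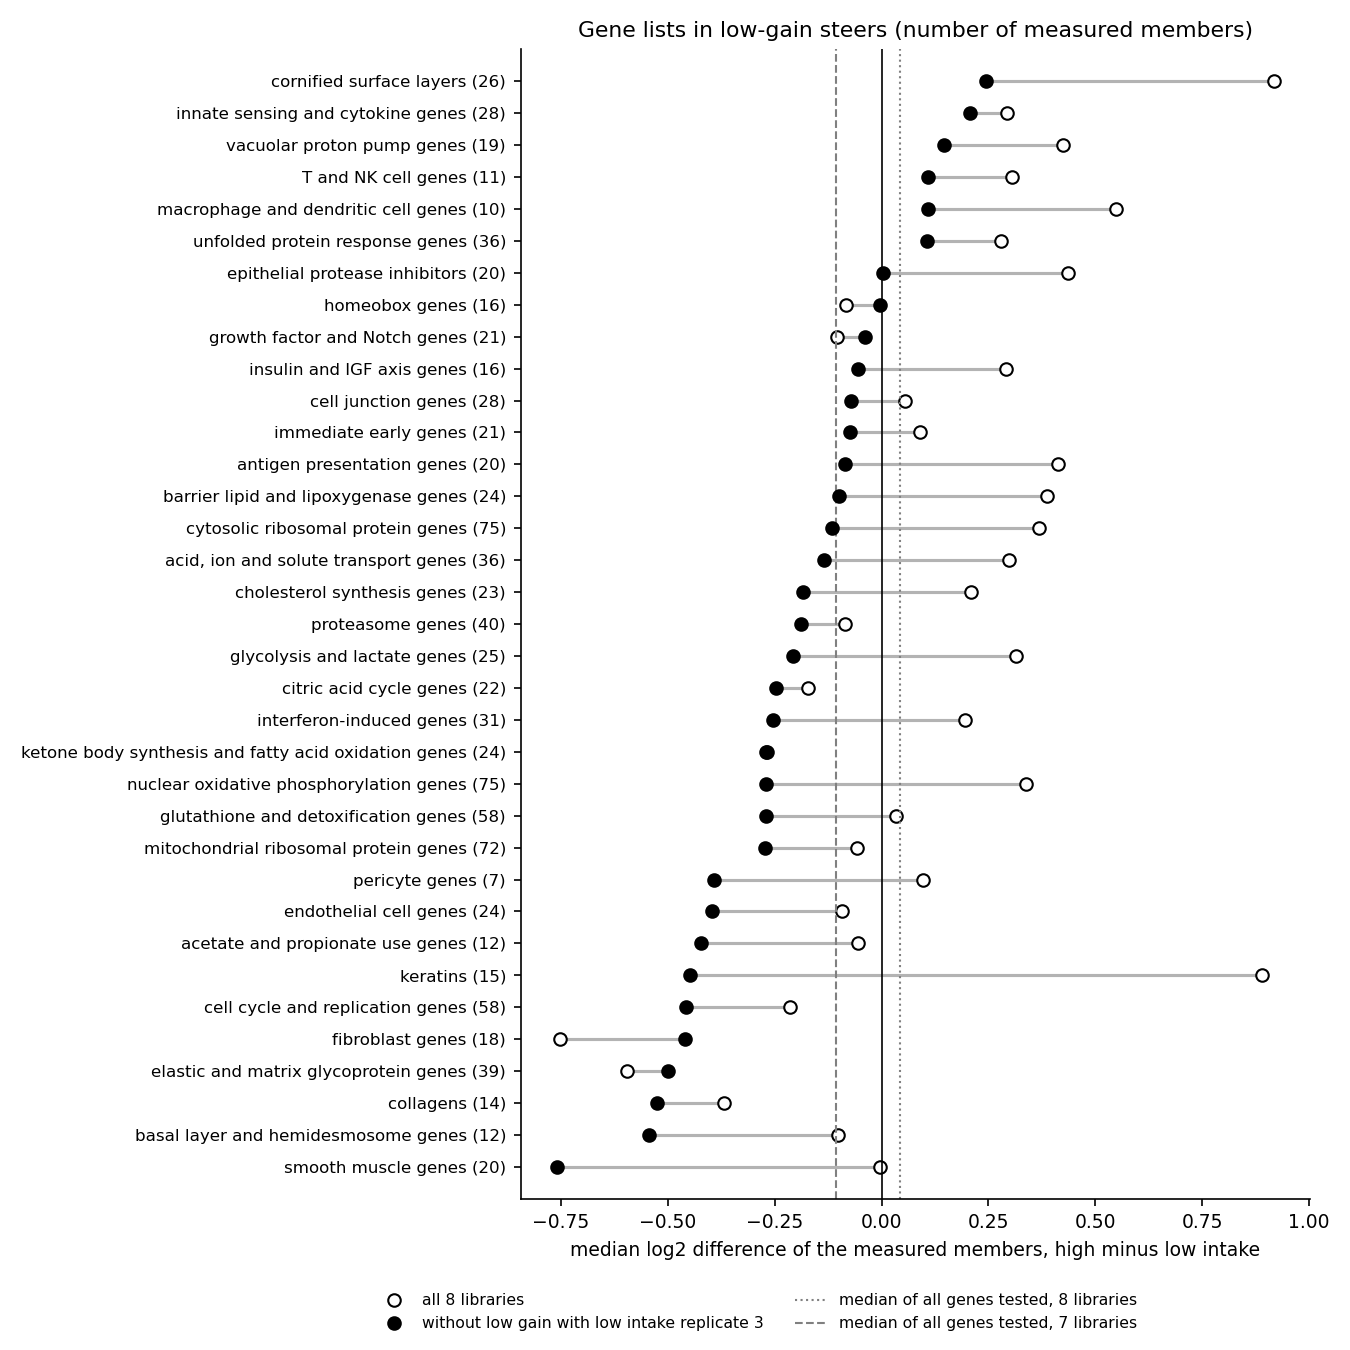
Median log2 difference (high minus low intake, horizontal axis) of each gene list with at least 5 tested members, with all 8 low-gain libraries (open) and without low-intake replicate 3 (filled); vertical lines mark the medians of all tested genes. The cornified list stays above 0, the matrix, collagen and fibroblast lists stay below 0, and keratins and oxidative phosphorylation cross 0.

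Vessel and stromal gene lists all had medians below 0 without replicate 3, and with it the pericyte median was above 0. Endothelial genes had 11 of 24 estimates higher and 13 lower (median -0.09), and 6 and 18 without replicate 3 (median -0.40). In 5 of the 24 (PECAM1, CDH5, KDR, TEK and ERG) the groups of 4 did not overlap, all on the lower side, as in 2.15% of all tested genes. KDR, a receptor of vascular endothelial growth factor, had 0.68, 2.11, 2.35 and 1.54 against 2.71, 2.78, 6.29 and 3.42. TEK, the angiopoietin receptor, had 1.42, 1.35, 1.73 and 1.37 against 2.13, 2.64, 6.10 and 2.22, and PECAM1, an adhesion protein of endothelium, 4.94, 5.67, 3.59 and 4.93 against 5.97, 6.27, 6.51 and 7.83. The direction was shared by 20 of 26 KDR exon regions with a mean of at least 0.5, and groups did not overlap in 1. For TEK these counts were 9 and 1 of 13, and for PECAM1 12 and 2 of 13. NOSTRIN (0 to 0.71 against 0.48 to 2.37) and LYVE1 of lymphatic vessels (0.03 to 0.69 against 0.66 to 1.93) overlapped. The summed level of the endothelial list was 72.3 to 83.4 at high intake, 96.2 to 106 in the other low-intake steers and 50.8 in replicate 3.

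Pericyte genes had 4 of 7 estimates higher with all 8 libraries (median 0.10) and 0 of 7 without replicate 3 (median -0.39). RGS5, a pericyte marker, had 5.55, 5.61, 6.46 and 5.48 against 6.5, 7.44, 34.6 and 6.88, so its groups were separated by a very small margin. In 1 of the 5 RGS5 exon regions with a mean of at least 0.5 the groups did not overlap. MCAM and KCNJ8 overlapped. Smooth muscle genes had 10 of 20 higher (median 0.00) and 2 of 20 without replicate 3, with a median of -0.76, and 9 of the 20 then did not overlap and were lower (8.05% of all tested genes). TAGLN and MYL9, contractile proteins, had 15.8 to 18.4 against 24.2, 38.8 and 33.7, and 6.38 to 8.94 against 12.2, 15.7 and 14.5. In replicate 3 they were at 2.07 and 0. MYLK, the myosin light chain kinase, had 7.18, 4.59, 9.54 and 4.61 against 9.05, 12.7, 32.8 and 11.96. CALD1, an actin-binding regulator of contraction, had 6.25, 4.58, 6.37 and 5.12 against 7.47, 9.94, 26.8 and 7.38 and did not overlap. PLN, SYNPO2 and SMTN overlapped. The summed smooth muscle level was 157 to 203 at high intake, 258 to 328 in the other low-intake steers and 82.5 in replicate 3.

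Fibroblast genes had 2 of 18 estimates higher and 16 lower (median -0.75), and 1 and 17 without replicate 3 (median -0.46). FAP had 0.24 to 0.79 against 0.79 to 2.49, TWIST1 0.36 to 1.25 against 1.06 to 1.92, and DCN, a collagen-binding proteoglycan, 10.9 to 17.6 against 15.8 to 53.8. Elastic fibre and matrix glycoprotein genes had 11 of 39 higher and 28 lower (median -0.60), and 4 and 35 without replicate 3 (median -0.50). In 6 (FBLN1, LTBP1, FN1, SPARC, THBS1 and MGP) the groups of 4 did not overlap, all lower, and in 10 without replicate 3. Over all tested genes the share on that side was 2.15% and 8.05%. SPARC, a matrix protein that binds collagen, had 69.6, 73.0, 106 and 56.7 against 115, 109, 185 and 108. There was no overlap (-0.76, SE 0.29; without replicate 3 -0.58, SE 0.20). In the 10 SPARC exon regions with a mean of at least 0.5 the direction was the same in 10 without replicate 3 but in 1 with it. FN1, fibronectin, had 7.99, 9.17, 15.9 and 6.74 against 16.3, 19.7, 54.0 and 16.4. Of its 25 exon regions with a mean of at least 0.5, 23 had the same direction and in 4 the groups did not overlap. MGP, an inhibitor of calcification, had 24.9, 24.3, 16.3 and 17.5 against 34.8, 32.0, 45.3 and 32.2, and TNC, tenascin C, 2.97 to 9.95 against 8.59 to 16.1, with overlap. MATN4 ran the other way, with 1.27 to 4.23 against 0.32 to 1.61. IGFBP7, a secreted binding protein abundant in vessels, had 21.6, 15.02, 22.6 and 16.4 against 27.5, 28.2, 63.9 and 29.1 (-0.89, SE 0.33; without replicate 3 -0.60, SE 0.17).

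Collagens had 5 of 14 estimates higher and 9 lower (median -0.37), and 1 and 13 without replicate 3 (median -0.53). COL4A1 of basement membranes had 10.1, 7.24, 14.4 and 6.84 against 14.9, 12.4, 17.0 and 17.8. COL1A1 had 24.3 to 52.5 against 84.3, 64.0 and 60.3, but 0.44 in replicate 3, and COL3A1 had 47.4 to 112 against 79.6 to 109, and 392 in replicate 3. COL8A1 and COL8A2 overlapped. The fibroblast list summed to 166 to 308 at high intake, 267 to 322 in the other low-intake steers and 1060 in replicate 3, and the collagens to 159 to 324, 306 to 356 and 745. In the other 7 libraries the summed levels of endothelial, pericyte and smooth muscle genes did not overlap between the groups, with 16.1 to 21.6 against 22.0 to 25.0 for pericytes. This was not particular to vessel and muscle lists. Summed keratins (3328 to 4255 against 4829 to 5505) and nuclear oxidative phosphorylation genes (2596 to 3431 against 3480 to 3662) did not overlap either. Over all tested genes 64.4% of estimates were then lower. The part of vessel, muscle and stromal cell types in the other gene differences was not tested.

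Cell cycle and replication genes had 17 of 58 estimates higher and 41 lower (median -0.21), and 7 and 51 without replicate 3 (median -0.46). TPX2, a spindle assembly factor, had 4.69, 2.57, 4.75 and 6.25 against 6.70, 7.13, 9.60 and 7.34 and did not overlap, while H2AFZ and CDCA2 overlapped. All 14 TPX2 exon regions with a mean of at least 0.5 shared the direction, but in only 1 did the groups not overlap. Among the 12 lower genes with the smallest p were FANCD2, CDKN3 and MND1. FANCD2, of DNA crosslink repair, had 0.71, 0.84, 0.56 and 0.36 against 2.2, 1.75, 1.95 and 1. CDKN3, a phosphatase of cyclin-dependent kinases, had 0.53 to 0.70 against 1.95, 1.18, 4.27 and 1.43, and MND1, a recombination factor, 0.31 to 1.28 against 1.77 to 7.16. None of the 3 overlapped, and the low levels rest on few reads. Of the 5 FANCD2 exon regions with a mean of at least 0.5, only 2 had this direction (3 without replicate 3), while all 5 of CDKN3 (3 without it) and all 6 of MND1 did.

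Of the stress genes, those of the unfolded protein response had 31 of 36 estimates higher (median 0.28) and 25 of 36 without replicate 3 (median 0.11), with no gene at an unadjusted p under 0.05 in either fit. XBP1, a transcription factor of this response, had 107, 96.0, 176 and 136 against 66.0, 114, 105 and 81.0, and EDEM1 and HYOU1 overlapped too. Glutathione and detoxification genes had 31 of 58 higher (median 0.03) and 13 of 58 without replicate 3 (median -0.27). GSTA4, which clears lipid aldehydes, had 7.45, 10.1, 7.99 and 7.19 against 12.3, 15.9, 31.3 and 11.8. Its groups did not overlap (-1.01, SE 0.35; without replicate 3 -0.70, SE 0.18). MT1A, a metallothionein, had 0.56, 1.68, 0.70 and 0.64 against 0.48, 0, 0 and 0.40, and TXN, thioredoxin, 31.5 to 56.4 against 50.9 to 108.

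The remaining genes with the smallest p values share no list. TPRG1 had 9.98, 15.6, 6.17 and 12.2 at high intake and 2.05, 3.45, 1.64 and 2.86 at low intake, for the region at chromosome 1, 78625981 to 78626149. This is 4.40-fold between the means with an estimate of 2.07 (SE 0.38), or 1.89 (SE 0.31) without replicate 3, and 5 of 6 exon regions did not overlap. C15H11orf34, on chromosome 15, had 6.46, 3.54, 2.26 and 2.24 against 0.08, 0.50, 0.08 and 0.51 (12.4-fold, estimate 3.36, SE 0.59; without replicate 3 3.07, SE 0.53), and its 4 exon regions did not overlap. LOC524771 had 1.17, 1.37, 3 and 8.05 against 0.15 to 0.30, and LOC784768 had 1.31 to 1.44 with 9.24 in high-intake replicate 3, against 0.12 to 0.82. LOC616942 (1.54 to 4.48 against 0 to 1.35), NT5M, a mitochondrial nucleotidase (0.61 to 2.68 against 0 to 0.59), and WTIP (0.54 to 2 against 0 to 0.48) were low in both groups. YBEY, an endoribonuclease, had 12.2, 12.6, 6.13 and 12.1 against 4.40, 5.89, 1.63 and 4.23. PIP, a secreted protein, had 24.0, 32.9, 23.9 and 43.0 against 14.7, 11.1 and 12.2, and 25.6 in replicate 3.

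On the lower side RBPMS, an RNA-binding protein of contractile and other cells, had 0.32, 0.91, 0.51 and 0.23 against 1.5, 2.54, 3.46 and 1.81 (4.73-fold lower at high intake, estimate -2.10, SE 0.45; without replicate 3 -1.89, SE 0.42). The high-intake levels stand for an estimated 0.95 to 3.91 reads, and in 1 of 4 exon regions the groups did not overlap. DKK3, a secreted protein of the Dickkopf family, had 3.28, 3.78, 3.93 and 2.29 against 6.35, 9.16, 6.78 and 6.29 on deeper coverage, an estimated 107 to 183 and 264 to 400 reads. Its estimate was -1.09 (SE 0.28) with and -1.11 (SE 0.23) without replicate 3. RSU1, of integrin adhesions, had 1.90 to 4.29 against 6.14 to 7.61, ACTN1, an actin crosslinker, 5.69 to 9.93 against 12.01 to 20.04, and NEDD9, an adhesion scaffold, 3.68 to 7.61 against 9.40 to 13.8. BCHE, butyrylcholinesterase, had 3.03 to 5.38 against 6.10 to 9.47, and TSPAN5 0 to 0.47 against 0.90 to 2.85. None of these groups overlapped in the region used. For TSPAN5 the filter on levels fixed this in advance, since all its high-intake levels lay under 0.5. Other exon regions did not all share the direction: with a mean of at least 0.5, it was the same in 6 of 21 for ACTN1, 3 of 6 for NEDD9 and 7 of 9 for RSU1, and without replicate 3 in 21 of 21, 6 of 6 and 9 of 9. BIN3, TOMM7, DHODH and MIF were lower in all high-intake steers than in the 3 other low-intake steers, while replicate 3 was at 0 in the first 3 and at 0.35 for MIF. MIF, a cytokine, had 62.2 to 88.6 against 133, 124 and 151 in those 3.

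**Figure D4:**
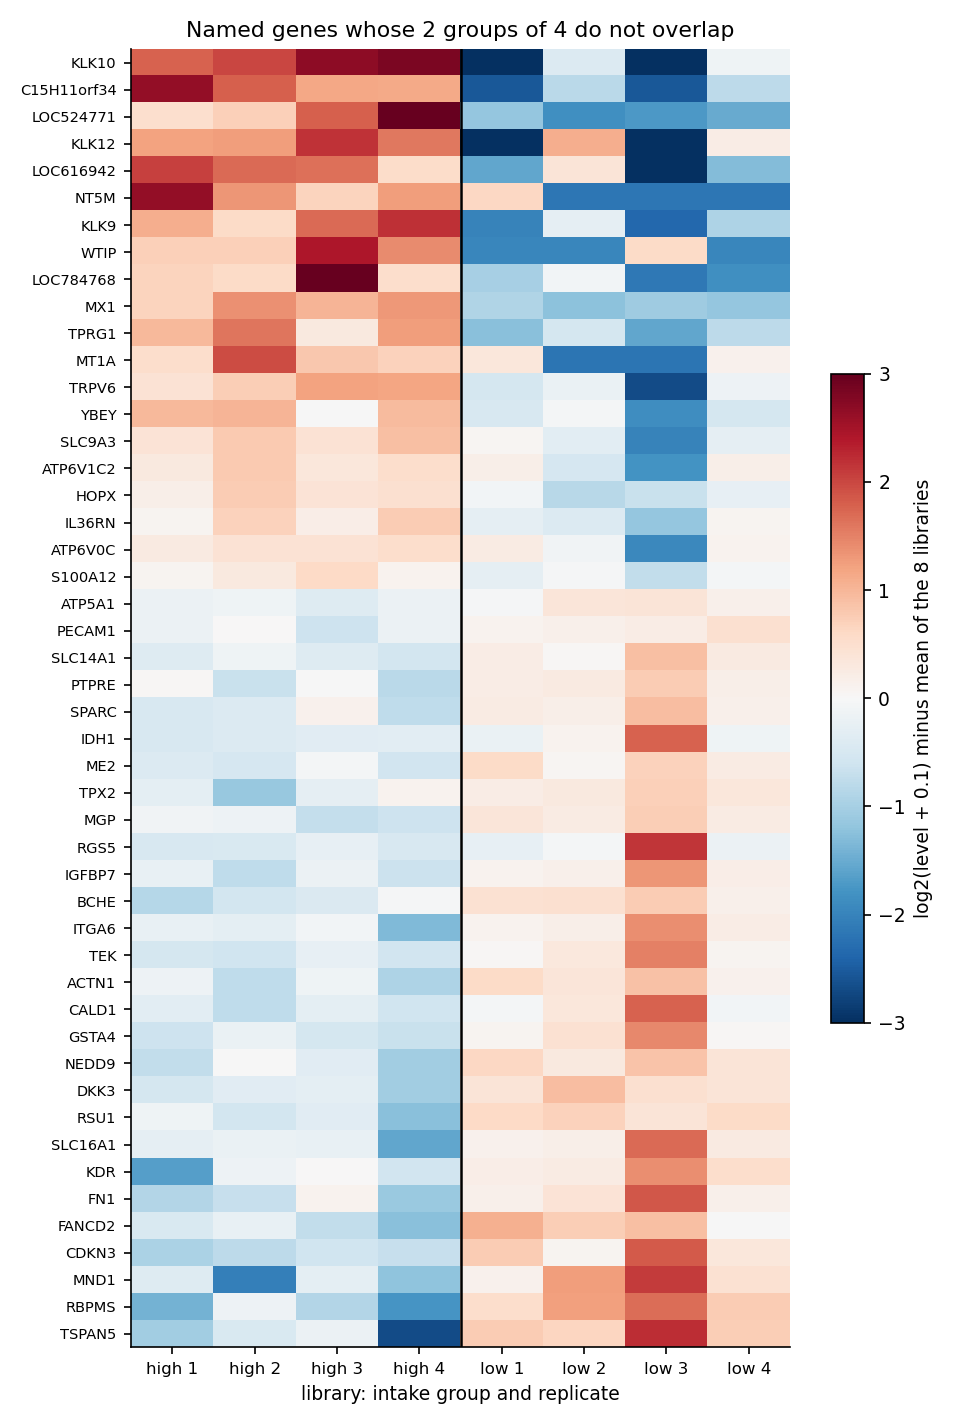
Log2(level + 0.1) minus the gene's mean over the 8 libraries (colour, limits at -3 and 3) for the 48 named genes that were tested and whose groups did not overlap, 20 higher and 28 lower at high intake, sorted by estimate. Low-intake replicate 3 has the strongest colour in many rows of both directions, while MX1, DKK3 and RSU1 are alike in all 4 low-intake steers. For LOC524771, WTIP, MT1A and TSPAN5 the filter on levels allowed no overlap.

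The same intake contrast exists at high gain, with 4 steers of high gain with high intake and 4 of high gain with low intake. There too 0 of 9052 genes (0%) passed (smallest adjusted p 0.845 in limma), with 87 higher (0.961%) and 158 lower (1.75%) at an unadjusted p under 0.05. Of those 8 libraries 4 had a first-exon index below -3. These were replicates 2, 3 and 4 of low intake (-4.18, -3.41 and -3.17) and replicate 4 of high intake (-4.21). Libraries of low index thus lay mostly at low intake, the side that also held the low-gain library of low index. The test of whether the intake difference depends on gain, an interaction over all 16 libraries, passed for 0 genes (0%), with a smallest adjusted p of 1.00. At an unadjusted p under 0.05 the difference at low gain exceeded that at high gain in 29 genes (0.32%) and fell short of it in 11 (0.122%). Without the 5 libraries of low first-exon index, a setting chosen after seeing the data, the count was also 0 and the smallest adjusted p 0.0876. That setting leaves 1 library of high gain with low intake, which is assumed to vary like the other groups.

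MX1 had the smallest interaction p. Its estimate was 2.18 (SE 0.28) at low gain and -0.23 (SE 0.46) at high gain, and the difference of 2.41 (SE 0.52) had an adjusted p of 1.00. TPRG1 had 2.07 (SE 0.38) and -0.09 (SE 0.50), a difference of 2.16. FAM48A (0.65 and -0.66), TRIM5 (-0.24 and -3.13), PEPD (-0.62 and 0.48), FANCD2 (-1.34 and 0.15), PTPRE (-0.72 and 0.52) and SLC10A3 (-0.67 and 0.92) completed the genes with the smallest interaction p, with all 16 libraries in each. The region that the file names TRIM5 lies on chromosome 9, and whether it is the TRIM5 locus was not checked. None passed the threshold, so no gene is shown to respond to intake at one gain level only. KLK9 (2.78 and 3.22), KLK10 (4.64 and 2.54), TRPV6 (1.77 and 1.68), LAP (1.41 and 1.64), GSTA4 (-1.01 and -0.999), SPARC (-0.76 and -0.68) and SLC16A1 (-1.13 and -0.94) had estimates of the same sign at low and at high gain. These contrasts share no animals, but in both the libraries of low first-exon index lay only or mostly at low intake. The genes are a choice from the named genes, and the share of same-sign estimates over all tested genes was not computed. Without the 5 libraries of low index, low-gain minus high-gain estimates were -1.03 for KLK9, -1.96 for KLK10 and 0.45 for TRPV6. They were 1.44 for LAP, 0.93 for GSTA4, 0.20 for SPARC and 0.40 for SLC16A1.

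**Figure D5:**
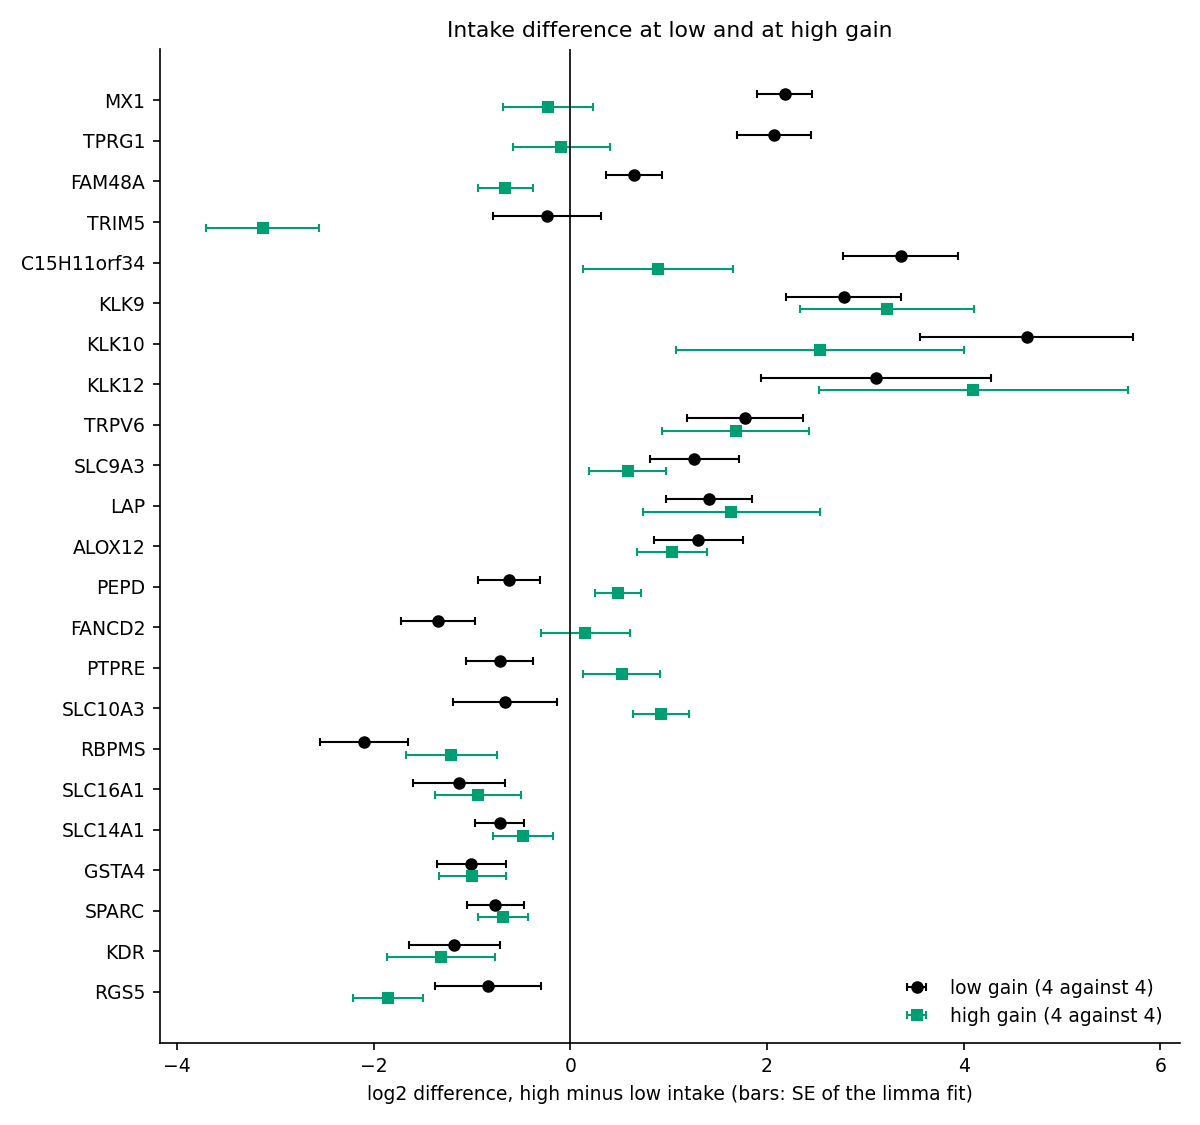
Intake difference (log2, high minus low intake, with the SE of the fit as bars) of 23 named genes at low gain (circles) and at high gain (squares), 4 steers against 4 in each. MX1 and TPRG1 lie near 2 at low gain and near 0 at high gain, while KLK9, TRPV6, LAP, GSTA4 and SPARC lie close together.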

How the data were processed

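Libraries of polyadenylated RNA from rumen papillae gave unpaired reads 50 bases long. The submitters' processing notes name TopHat2 2.08b and the genome build UMD3.1. How regions and coverage were made is not given in the sources used here. Each signal value deposited by the authors is a region's mean coverage per base, scaled by 1 factor per library, which was read from the values. The authors also deposited a fold of the highest over the lowest sample, its log2 value, and an unadjusted p-value whose test is not stated; none of these was used. Of 2351373 regions, 113576 carry an exon. Read numbers are estimated from the value of 1 read, 0.72 to 1.00 in the 8 libraries. The values are not read counts, so no count-based test was used.

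A gene takes the level of the exon region whose mean across all 16 libraries is highest. Regions that carry exons of more than 1 gene (515) were dropped. Genes with a level of at least 0.5 in at least 4 of the 8 libraries were fitted on log2(level + 0.1) with limma 3.58.1 (R 4.3.3), using its trend and robust options and two-sided tests. Benjamini-Hochberg adjustment ran over all 9052 genes tested, at a threshold of 0.05. The main fit used the 8 low-gain libraries, and the interaction used all 16 with 4 group means. Alternatives changed the pseudocount, the filter, the region, the scaling, the fit or the libraries, or added the first-exon index. Named genes are the 12 with the smallest p in each direction, 6 in each direction without low gain with low intake replicate 3, 4 in each direction for the interaction, 5 or 3 members of each list described, and 20 fixed genes, of which 1 is not reported here. Other genes are named only where a small count is spelled out or where said, and were picked after their values were seen. The comparison, the lists and the fixed genes were chosen with earlier results of these data known, so no list is given a test. On simulated data with 8 libraries, 2.99%, 28.4% and 66.7% of genes moved by a log2 of 1, 2 and 3 were recovered, with 5 false calls, and with 7 libraries 38.8%, 86.6% and 89.4%, with 13. Sequences were not used here.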

Additional observations from a re-analysis of the deposited data

Results flagged for a closer look

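In 244 groups of 4 steers (named genes and library measures), the highest or lowest library was set against the other 3 by its gap to the nearest one as a share of the group's whole range. In 43 groups 1 library stood apart by this measure, and in 32 of the 43 it was low gain with low intake replicate 3. Chance alone flags about 1 in 20 of independent groups. The groups here share the same 8 libraries, and some genes were named from the fit without replicate 3. That rate is therefore no yardstick for these counts.

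Replicate 3 was the lowest of its group for the share of coverage in exons (0.898 of the range) and the first-exon index (0.937). It was also the lowest for TOMM7 (0.981), MIF (0.965), MYL9 (0.95), COL1A1 (0.934), BDH1 (0.928), DHODH (0.917), HYOU1 (0.91), SMTN (0.908), KRT5 (0.901), BIN3 (0.854), TRPV6 (0.85), ATP6V0C (0.841) and TAGLN (0.837). It was the highest for WTIP (1), IGFBP7 (0.933), TSPAN5 (0.929), FABP5 (0.929), RGS5 (0.92), TXN (0.915), SLC16A1 (0.911), ITGA6 (0.906), SPARC (0.882), LYVE1 (0.874), SERPINB10 (0.851), IDH1 (0.848), FN1 (0.843), SUCLG2 (0.839), PTPRE (0.836), SDHD (0.835) and H2AFZ (0.831). The part of this library in each value is given by the estimates without it.

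In the other 11 groups a different library stood apart. Low-intake replicate 1 was the highest for NT5M (1). Among the high-intake steers, replicate 1 was the highest for SLC26A2 (0.888) and the lowest for ATP6V1B1 (0.861), and replicate 2 was the highest for DTX3L (0.913). High-intake replicate 3 was the highest for LOC784768 (0.953), RGS5 (0.858) and TXN (0.845) and the lowest for YBEY (0.941) and ATP5A1 (0.871). High-intake replicate 4 was the lowest for SLC16A1 (0.94) and KRT5 (0.842).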

How the results depend on the processing

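No paired analysis was possible because replicates carry no number of their own in the labels. The count of genes past the threshold at low gain was 0 and became 1, MX1, with the first-exon index as a covariate. Leaving out each library in turn gave 0 to 1, with the 1 from leaving out low gain with low intake replicate 3. The covariate is not independent of this setting, as that library alone had an outlying index at low gain. The interaction gave 0 in every alternative that was run, with a smallest adjusted p of 0.0876 to 1.00. The counts at an unadjusted p under 0.05 moved from 70 higher and 118 lower to 228 and 312 with the covariate and to 221 and 669 without replicate 3. The higher count was 133 with no filter on levels, 41 with a mean of at least 2, 44 without high-intake replicate 1 and 35 without high-intake replicate 2. The lower count was 70 without high-intake replicate 1 and 40 without high-intake replicate 4. Over the left-out libraries, high minus low intake ranged from -0.892 to 0.567 M estimated reads, from -3.27 to 0.917 points of exon share, from -1.26 to 3.1 points of mitochondrial share and from -0.222 to 0.937 of the first-exon index.

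Of 1141 pairs of a named gene and an alternative other than leaving out a library, 20 changed direction, and of 952 pairs with a left-out library 18 did, 11 of them without replicate 3. Over all exon regions the estimate was -0.062 for FAM48A, -0.31 for TOMM7, -0.075 for DHODH, 0.82 for SLC10A3, -0.15 for BDH1 and -0.32 for COL1A1. In regions without a first exon it was -0.31 for TOMM7. With a pseudocount of 1 it was -0.21 for DHODH and -0.018 for TAGLN, and centred on the median -0.024 for TAGLN and -0.079 for KRT5. With the covariate it was -0.069 for TOMM7, -0.71 for DHODH, -0.24 for MIF, -0.64 for TAGLN, -0.41 for MYL9, -0.14 for BDH1, -0.26 for COL1A1, -0.45 for KRT5 and -0.13 for KRT14. Over the left-out libraries the estimate ranged from -0.66 to 2.18 for TOMM7, -1.11 to 0.93 for DHODH, -0.81 to 1.99 for MIF, -0.90 to 0.48 for TAGLN, -0.91 to 1.53 for MYL9, -0.53 to 1.34 for BDH1, -0.76 to 1.67 for COL1A1, -0.62 to 0.28 for KRT5, -0.50 to 1.54 for KRT14 and -0.080 to 0.37 for DSP. The lower end came from leaving out replicate 3 in these 10 genes. For BIN3 the range was -1.59 (without replicate 3) to 0.46, and for TRIM5 -0.54 to 0.088 (without replicate 3). The causes were not tested. Of 38 list medians 14 changed sign without replicate 3.

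Depth limits low genes: 1 read is worth 0.72 to 1.00 over a region of about 1 read length, so levels under 1 in short regions rest on few reads. On simulated data 2.99% of differences of 1 (log2) were recovered with 8 libraries, against 38.8% with the 7 left without low-intake replicate 3. The simulation drew noise for each gene separately with that gene's SD. It therefore does not copy 1 library that is shifted in many genes together. Absent calls do not show that levels were alike.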

Other observations

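Of 155 list members too low to be tested, 4 had groups that did not overlap: KLK7 and KLK8, given above, on the higher side and CXCL9 and TGFB2 on the lower. Among all tested genes the groups did not overlap in 0.961% on the higher and 2.15% on the lower side. That share is no background for these members, which failed the filter on levels and are often at 0 in both groups. The share over all untested genes was not computed. The genes here were picked after their values were seen. CXCL9, a chemokine that interferon gamma induces, was listed at 0 in all 4 high-intake steers and at 0.39, 0.35, 0.35 and 0.73 in the low-intake steers. TGFB2, a transforming growth factor, had 0.42, 0.40, 0.40 and 0.13 against 0.78, 0.67, 2.41 and 0.45. In the other genes named here the groups overlapped or touched. CXCL10, a related chemokine, had 0, 0.06, 0.33 and 0.19 against 0.42, 0.40, 0.20 and 0.29. GBP5, a guanylate-binding protein, had 0.35, 0, 0 and 0 against 0.74, 1.12, 0.28 and 0.50. The values of CXCL9, CXCL10 and GBP5 rest on few reads, while the TGFB2 region is longer, with 2555 bases. SAMD9, an antiviral protein, had 0.30, 0.40, 0.31 and 0.32 at high intake and 2.62, 0.46, 0.40 and 2.32 at low intake, so that 2 low-intake steers stood above the rest and the others lay at or near the high-intake levels. CRNN, a protein of the cornified envelope, had 1.38, 0.90, 0.05 and 2.10 at high intake and 0.08, 0, 0 and 0.16 at low intake. CDSN, a protein of the junctions between cornified cells, had 0.13, 0.23, 0.82 and 0.20 against 2.61, 0.64, 0.02 and 0.24. ATP6V0D2, a subunit of the vacuolar proton pump, had 0.56, 0.42, 0.90 and 0 against 0 in all 4 low-intake steers. None of these differences was tested.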
